A study of Mus musculus with 16 samples.

Results

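The 10 genes described here are used to mark stem and progenitor cells of the mammary gland: *Cd24a*, *Cd44*, *Cd34*, *Kit*, *Kitl*, *Sox4*, *Sox9*, *Id1*, *Id3* and *Gata3*. They were chosen as a named list of 10 of the 33072 genes in the table, matched by mouse symbol to the Ensembl gene. The members were selected on measured values of these samples, but which of the values chose them is not recorded, and the list has no threshold. Levels and tests of the members are therefore a description of these samples and no independent evidence.

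RNA was sequenced from 2 mouse mammary carcinoma cell lines, 67NR and 4T1, which come from the same spontaneous tumor of a BALB/c mouse. 67NR cells are non-metastatic and 4T1 cells are highly metastatic, so each arm of the comparison is 1 cultured line and no host tissue is present. Each line was treated for 24 h with vehicle (DMSO) or with 15 µM CIX, an inhibitor of the cytosolic phospholipase A2 cPLA2α, which releases arachidonic acid from membranes. Each of the 4 groups held 4 samples, numbered 1 to 16 across the study. Cells were cultured and seeded in medium with serum, while the medium during treatment is not stated for the sequenced cells.

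In the mammary gland, a basal and a luminal layer are renewed by progenitors that are told apart by surface proteins. The glycoprotein CD24 and the hyaluronan receptor CD44 are the usual pair for sorting breast cancer cells, while CD34 and the receptor KIT mark other progenitors. GATA3 keeps luminal cells in their fate, SOX9 and SOX4 act in progenitors, and the ID proteins hold back differentiation by binding basic helix-loop-helix factors.

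The deposited estimated counts summed to between 21715700 and 29450629 per sample. Levels are given in CPM, a gene's share of the counts of a sample (scaled by TMM over all samples), and levels of different genes are compared only in TPM, which also allows for transcript length. TPM was approximated from the mean length of each gene's transcripts. A count of 3, taken as the smallest detected level, corresponded to between 0.102 and 0.138 CPM, which covers counting error only. Replicates of a group differed beyond counting noise in every pair, and some samples stood apart. The chi-square per gene between 67NR vehicle sample 13 and its replicates was 92.2 to 107, while the other pairs of its group gave 18.1 to 21.5. For 4T1 CIX sample 4 it was 64.4 to 96.3, with 27.1 to 45.5 in the other pairs, and the highest value was 116, between 4T1 vehicle samples 3 and 11. Results that leave out a sample are given where they differ. Called refers to genes whose p in limma-voom, adjusted over all tested genes by the Benjamini-Hochberg procedure, was below 0.001, and "rose" and "fell" are used of called changes only.

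The lines differed in the marker set they expressed, and the direction was not the same for all markers. Per length, the most abundant markers of vehicle-treated 67NR cells were *Kitl* with 238 ± 14.5 TPM (SD, n = 4), *Cd44* with 189 ± 23.0 TPM and *Cd34* with 179 ± 14.5 TPM. In vehicle-treated 4T1 cells they were *Cd24a* with 290 ± 38.1 TPM and *Cd44* with 172 ± 10.6 TPM, while *Kitl* had 12.5 ± 2.20 TPM and *Cd34* 4.30 ± 0.773 TPM. *Cd44* was thus among the most abundant markers of both lines, and *Cd24a*, *Cd34* and *Kitl* were each abundant in 1 line.

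**Figure D1:**
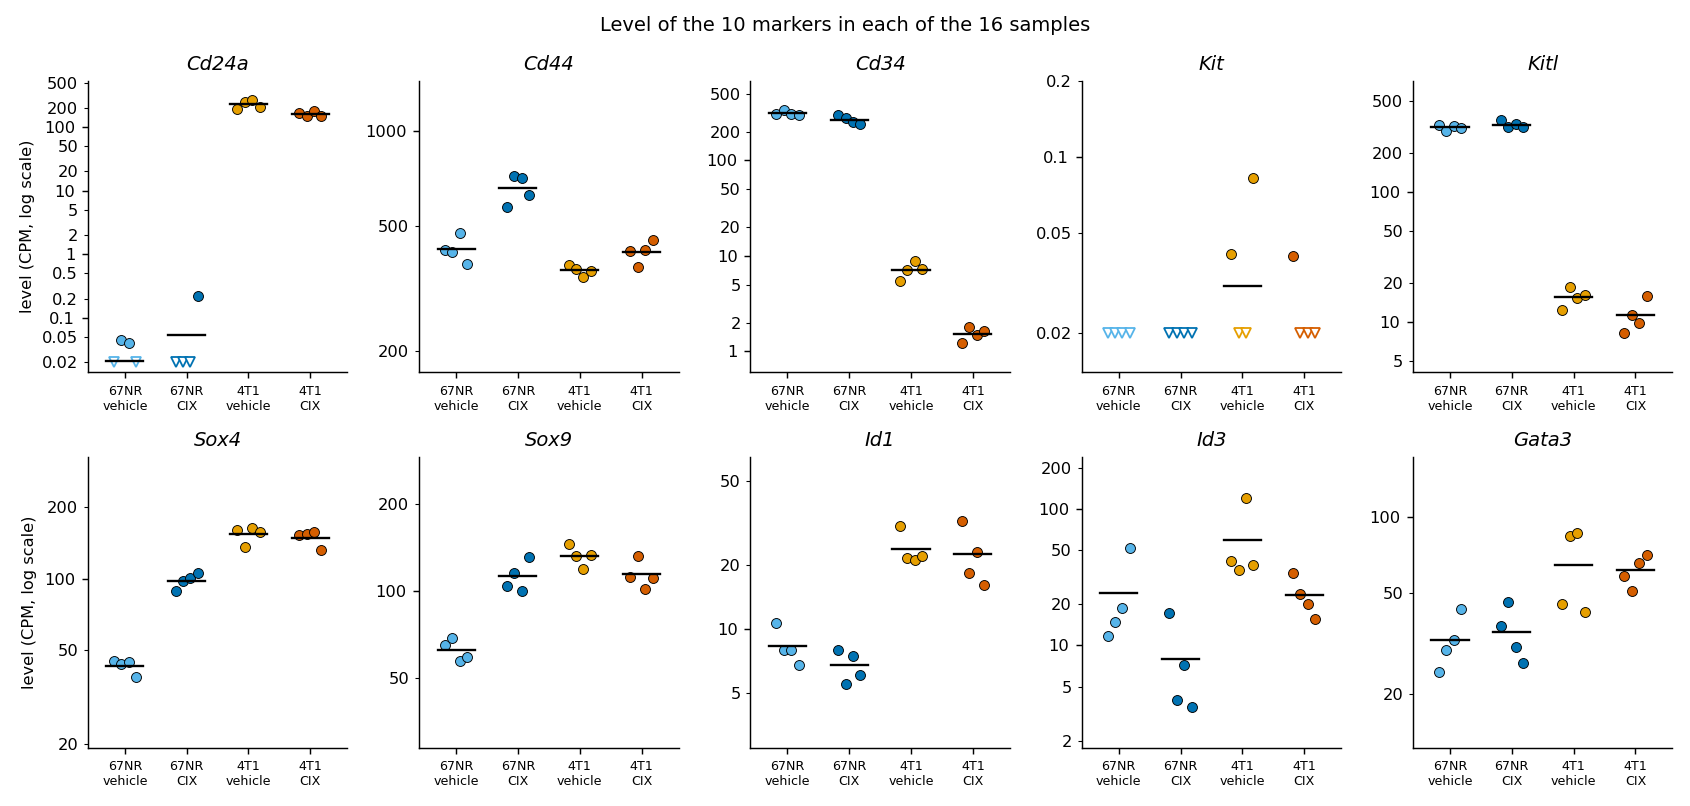
Level of the 10 markers in each sample, in CPM on a log axis that differs between panels, with the 4 samples of each group as points and the group mean as a black line. Open triangles are samples with a count of 0, drawn at the bottom. In 4T1 the lowest Cd24a value is 148 CPM and in 67NR the highest is 0.218 CPM, while Cd34 and Kitl show the opposite order.

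Of the surface markers, *Cd24a* (ENSMUSG00000047139, chr10:43578284-43584265, GRCm38, plus strand) was at the detection limit in 67NR cells. Its counts in the vehicle samples 1, 5, 9 and 13 were 0, 1, 1 and 0, and those in the CIX samples 2, 6, 10 and 14 were 0, 0, 0 and 5. In 4T1 cells it stood at 189, 248, 264 and 210 CPM under vehicle (samples 3, 7, 11 and 15) and at 168, 148, 181 and 149 CPM under CIX (samples 4, 8, 12 and 16). No 67NR sample came near a 4T1 sample. Summed over the vehicle samples, the level in 4T1 was 10897 times that in 67NR, with an exact 95% interval of 3016 to 89983 that covers counting error only and rests on 2 counts in 67NR. The gene did not pass the filter on low values in the comparison of lines or in 67NR cells, since the 67NR samples were near 0. In the fit without the filter the cell line difference was 12.58 (SE 0.50) on the log2 scale, a value that depends on the prior count.

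Under CIX, *Cd24a* in 4T1 cells was 0.50 lower on the log2 scale (SE 0.13), with an adjusted p of 0.0103 in limma-voom, which misses the threshold. The highest CIX sample (181 CPM) lay below the lowest vehicle sample (189 CPM). Of the 31-base words in its transcripts, 4.98% also occurred in transcripts of 2 other genes, *Gm6212* and *Gm15352*, so a small part of its reads is uncertain.

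*Cd44* (ENSMUSG00000005087, chr2:102811141-102901665, minus strand) encodes the hyaluronan receptor. Its level in 67NR cells was 420, 412, 473 and 377 CPM under vehicle and 574, 721, 707 and 625 CPM under CIX. In 4T1 cells it was 374, 365, 343 and 360 CPM under vehicle and 415, 369, 418 and 450 CPM under CIX. The 67NR samples under CIX were the highest of all and overlapped with no other group, whereas the 4T1 groups overlapped. In 67NR cells the change was 0.62 (SE 0.09) on the log2 scale, with an adjusted p of 0.00358 in limma-voom, short of the threshold, and of 2.55e-07 in DESeq2. In 4T1 cells it was 0.18 (SE 0.08, adjusted p = 0.115 in limma-voom). The difference between the lines' responses was −0.45 (SE 0.12, 95% interval −0.71 to −0.18), and its adjusted p of 0.0139 in limma-voom also missed the threshold.

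The ratio of *Cd44* to *Cd24a*, which sorting schemes read at the protein level, could be formed for transcripts in 4T1 cells alone. In TPM it was 0.604 ± 0.111 (SD, n = 4) under vehicle, between 0.485 and 0.739, and 0.962 ± 0.116 under CIX, between 0.863 and 1.13. The CIX samples did not overlap with the vehicle samples. No test was run on this ratio, since it was chosen with the values known. In bulk RNA, a change in the share of cells that carry a marker and a change in transcripts per cell cannot be told apart, and this holds for every marker described here.

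*Cd34* (ENSMUSG00000016494, chr1:194938819-194961279, plus strand), a sialomucin of progenitor, stromal and vascular cells, was the surface marker with the largest measured response to CIX. In 67NR cells it stood at 311, 340, 307 and 297 CPM under vehicle and at 300, 279, 253 and 241 CPM under CIX. In 4T1 cells the vehicle samples had 5.39, 7.07, 8.78 and 7.22 CPM, and the CIX samples had a mean of 1.53 ± 0.254 CPM (SD, n = 4), with 1.21 to 1.80 CPM. These levels rest on 673 counts in the 4 vehicle samples and on 154 in the 4 CIX samples, all above the floor of 3 counts per sample. All 4T1 samples lay below all 67NR samples, and within 4T1 the treatments did not overlap, with CIX the lower.

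Between the vehicle-treated lines *Cd34* was lower in 4T1 than in 67NR by −5.49 on the log2 scale (SE 0.13, 44.9-fold, adjusted p = 3.33e-08 in limma-voom). Under CIX it fell by 2.21 in 4T1 cells (SE 0.23, 4.64-fold, adjusted p = 0.000159 in limma-voom), a call that held whichever of the 8 samples was left out, with adjusted p from 0.00023 to 0.000962. The gene passed the filter on low values through its vehicle samples, as its mean in the CIX samples was 0.876 TPM, below the limit of 1 TPM. In 67NR cells the change was −0.25 (SE 0.08, adjusted p = 0.0681 in limma-voom). The responses differed by −1.97 (SE 0.25, adjusted p = 5.13e-05 in limma-voom), and the call was kept whichever of the 16 samples was omitted. Of its 31-base words, 2.78% occurred in other genes, spread over 148 of them.

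Because *Cd34* and *Sox4* had the largest called differences of response among the members, the sequence before their transcription starts is shown. The table of RefSeq promoters used here matched 7 of the 10 members. For *Cd34* the 248 bases before the first annotated transcript, chr1:194938571-194938818 on the plus strand of GRCm38.p6, are given 5′ to 3′. Capitals mark CCAAT on either strand, and here there are none.
Cd34: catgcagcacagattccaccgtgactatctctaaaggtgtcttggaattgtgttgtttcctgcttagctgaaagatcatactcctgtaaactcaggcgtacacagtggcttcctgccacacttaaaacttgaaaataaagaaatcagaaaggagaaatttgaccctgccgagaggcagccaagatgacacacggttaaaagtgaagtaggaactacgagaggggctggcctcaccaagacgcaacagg
The window of 250 bases held 6 CpG dinucleotides, the median over all 32851 promoters of that length being 6, and a GC content of 46.4%, the median being 52.4%. On neither strand did it hold the TATA box letters TATAAA, found in 12.4% of all promoters. It likewise held neither CCAAT, found in 33.8%, nor the GC box letters GGGCGG, found in 32.7%.

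Of the 4 sialomucin relatives of *Cd34* listed, 2 were tested under CIX in 4T1 and none was called, beside 9.32% of all genes. *Podxl*, podocalyxin, had a value of 0.77 there (SE 0.15, adjusted p = 0.00305 in limma-voom), opposite in sign to *Cd34* and short of the threshold. *Cd164*, another sialomucin, was higher in 4T1 with 194 ± 13.1 CPM than in 67NR with 62.5 ± 7.12 CPM, a log2 difference of 1.63 (SE 0.09, adjusted p = 7.17e-07 in limma-voom), opposite in direction to *Cd34*.

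The receptor *Kit* (ENSMUSG00000005672, chr5:75574916-75656722, plus strand) was not detectable at this depth. All 8 samples of 67NR had a count of 0, while the 4T1 vehicle samples had 1, 0, 0 and 2 and the 4T1 CIX samples 1, 0, 0 and 0. None of the 16 samples reached the floor of 3 counts, and *Kit* entered no test with the filter.

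Its ligand *Kitl* (ENSMUSG00000019966, chr10:100015630-100100416, plus strand), stem cell factor, was expressed in both lines at very different levels. In 67NR cells it stood at 330, 296, 323 and 311 CPM under vehicle and at 357, 316, 331 and 317 CPM under CIX. In 4T1 cells it stood at 12.4, 18.6, 15.2 and 16.0 CPM under vehicle and at 8.24, 11.4, 9.80 and 16.0 CPM under CIX. The lines did not overlap, while the treatments overlapped within each line. Under vehicle *Kitl* was lower in 4T1 by −4.36 on the log2 scale (SE 0.11, 20.5-fold, adjusted p = 3.33e-08 in limma-voom). The change under CIX was −0.50 in 4T1 (SE 0.21, 95% interval −0.98 to −0.03) and 0.05 in 67NR (SE 0.07, 95% interval −0.10 to 0.20), neither called. The difference of responses was −0.55 and was not called, with an adjusted p of 0.0488 in limma-voom, 0.0926 in edgeR and 0.0567 in DESeq2, and of 0.00681 to 0.118 in limma-voom with 1 sample left out.

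Of 21 listed genes that act below KIT, all but *Grb7* and *Grb10* had means above 1 CPM in every group. Of the 21, 19 were tested between the lines, with 4 higher and 3 lower in 4T1, where 40% of all genes were called. The feedback inhibitor *Socs1* was lower in 4T1 (4.71 ± 1.27 against 38.9 ± 5.64 CPM, log2 difference −3.07, adjusted p = 1.68e-06 in limma-voom), as was the docking protein *Dok1* (−1.75), while the ubiquitin ligase *Cblb* was higher (1.84). Under CIX in 4T1 cells, 1 of 20 was called, beside 9.32% of all genes. This was *Pik3ca*, a catalytic subunit of PI3 kinase, which fell by 0.91 (SE 0.13, adjusted p = 0.000684 in limma-voom), from 130 ± 14.6 to 70.7 ± 11.8 CPM. Of the 8 fits with 1 sample left out, only the fit without CIX sample 16 kept this call. Its response differed from that in 67NR by −1.02 (adjusted p = 0.000428 in limma-voom), a call lost without 67NR vehicle sample 1 or 5, 67NR CIX sample 6, 4T1 vehicle sample 7 or 4T1 CIX sample 8 or 12.

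*Sox4* (ENSMUSG00000076431, chr13:28948919-28953713, minus strand), a transcription factor of progenitor and tumor cells, rose under CIX in 67NR cells. There it stood at 45.0, 43.5, 44.4 and 38.6 CPM under vehicle and at 88.7, 98.0, 101 and 105 CPM under CIX. The 4T1 cells had 160, 136, 164 and 158 CPM under vehicle and at 153, 155, 157 and 132 CPM under CIX. The 67NR groups did not overlap, the 4T1 groups did, and the CIX-treated 67NR samples remained below every 4T1 sample.

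In 67NR cells *Sox4* rose by 1.18 on the log2 scale (SE 0.07, 2.26-fold, adjusted p = 0.000296 in limma-voom). The log2 fold change stayed between 1.14 and 1.22 when any 1 sample was left out. The adjusted p then passed the threshold only without vehicle sample 13 or without CIX sample 2, and without vehicle sample 1, 5 or 9 or CIX sample 6, 10 or 14 it lay between 0.0017 and 0.00247. In 4T1 cells the change was −0.07 (SE 0.10, 95% interval −0.29 to 0.16). The responses differed by −1.24 (SE 0.12, adjusted p = 6.79e-06 in limma-voom), the smallest p of this contrast among the members. Between vehicle-treated lines *Sox4* was higher in 4T1 by 1.84 (SE 0.09, 3.58-fold, adjusted p = 3.66e-07 in limma-voom).

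The 236 bases before the annotated *Sox4* transcript, chr13:28953714-28953949 of GRCm38.p6, are given on the minus strand, with CCAAT on either strand (ATTGG when reversed) in capitals.
Sox4: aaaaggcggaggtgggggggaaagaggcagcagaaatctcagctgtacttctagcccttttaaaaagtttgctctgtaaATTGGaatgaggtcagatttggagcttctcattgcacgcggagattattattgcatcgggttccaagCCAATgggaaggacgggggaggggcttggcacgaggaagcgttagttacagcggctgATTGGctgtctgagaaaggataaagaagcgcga
They held CCAAT 3 times, and the full window of 250 bases held it 4 times, with no TATAAA or GGGCGG to overlap with. The window had 11 CpG dinucleotides and a GC content of 50.8%. Of the 7 members with a promoter, *Sox4* was the only one whose window held CCAAT. These are matches of letters and not sites known to be bound.

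*Sox9* (ENSMUSG00000000567, chr11:112782224-112787760, plus strand), a factor of luminal progenitors, had a like pattern at smaller size. In 67NR cells it stood at 65.2, 68.9, 57.5 and 59.4 CPM under vehicle and at 104, 116, 100.3 and 131 CPM under CIX. The 4T1 cells had 146, 133, 120 and 134 CPM under vehicle and at 112, 133, 102 and 111 CPM under CIX. The 67NR groups did not overlap, and the CIX-treated 67NR samples overlapped with the CIX-treated 4T1 samples. The change in 67NR was 0.82 (SE 0.10), with an adjusted p of 0.00142 in limma-voom, just above the threshold, of 0.00154 in edgeR and of 1.05e-11 in DESeq2. In 4T1 cells it was −0.24 (SE 0.11, 95% interval −0.48 to 0.01).

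The responses of *Sox9* differed between the lines by −1.06 (SE 0.15, adjusted p = 9.87e-05 in limma-voom), a call kept in all 16 fits with 1 sample left out. Under vehicle *Sox9* was higher in 4T1 by 1.07 (SE 0.09, adjusted p = 9.48e-06 in limma-voom). In TPM, *Sox9* exceeded *Sox4* 1.70 ± 0.149 times (SD, n = 4) in vehicle-treated 67NR cells and 1.33 ± 0.123 times after CIX, while the ratio was 1.00 ± 0.122 and 0.894 ± 0.115 in 4T1 cells.

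**Figure D2:**
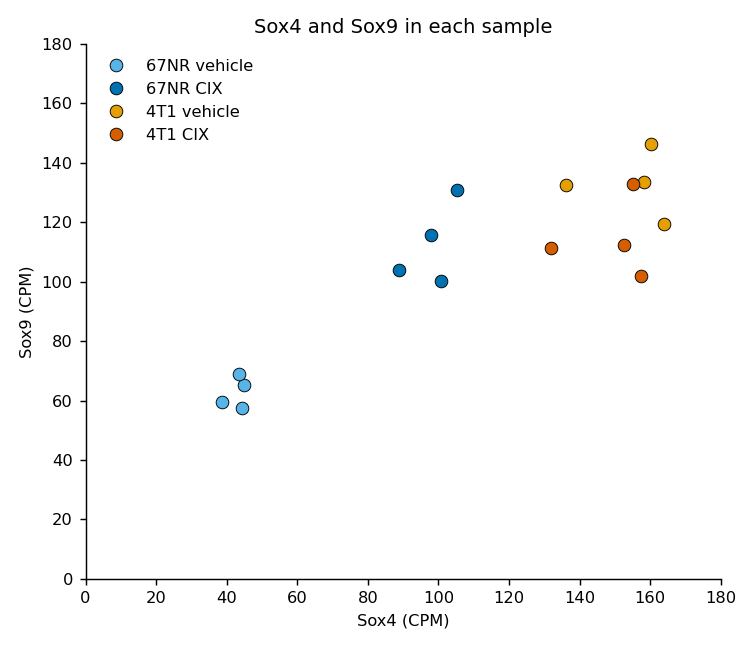
Level of Sox4 (x axis, CPM) and Sox9 (y axis, CPM) in each of the 16 samples, coloured by group. The vehicle-treated 67NR samples lie apart at 38.6 to 45.0 CPM of Sox4, the CIX-treated 67NR samples lie between 88.7 and 105 CPM, and the 4T1 samples of both treatments lie between 132 and 164 CPM.

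Other SOX genes were mostly absent. Of 17 listed, 2 were tested under CIX in 4T1 and 1 in 67NR, and none was called, beside 9.32% and 0.389% of all genes. *Sox12*, a close relative of *Sox4*, was lower in 4T1 than in 67NR (6.55 ± 1.61 against 42.0 ± 6.11 CPM, log2 difference −2.71, adjusted p = 2.82e-06 in limma-voom). Its value under CIX in 4T1 was 1.26 (SE 0.22, adjusted p = 0.00166 in limma-voom), which missed the threshold.

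The genes whose level followed that of *Sox4* most closely over the 16 samples, by Pearson's r of log2 CPM among 12613 genes, were *Tead4* (0.976), *Plscr3* (0.962), *Esrra* (0.958), *Pgm2* (0.958) and *Kdm6b* (0.956), with 0.922 for *Sox9*. The samples fell into separate groups, so these values describe the order of the groups. *Kdm6b*, a histone demethylase, had group means of 24.8 and 54.8 CPM in 67NR and of 117 and 115 CPM in 4T1, for vehicle and CIX. *Tead4*, a DNA-binding partner of YAP, had 13.1 and 22.6 CPM in 67NR and 36.7 and 39.3 CPM in 4T1. Their differences of response had adjusted p-values of 0.00562 and 0.00148 in limma-voom and were not called.

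*Gata3* (ENSMUSG00000015619, chr2:9857078-9890034, minus strand), the luminal fate factor, did not pass the threshold in any comparison in limma-voom. It stood at 24.4, 29.9, 32.5 and 43.3 CPM in 67NR under vehicle and at 36.9, 46.3, 30.7 and 26.4 CPM under CIX. In 4T1 the vehicle samples split into 45.3 and 42.2 CPM in samples 3 and 15 and 84.6 and 86.7 CPM in samples 7 and 11, and the CIX samples had 58.3, 51.0, 65.8 and 71.1 CPM. All CIX samples of 4T1 thus lay between the low and the high vehicle samples. The change under CIX was −0.02 in 4T1 (95% interval −0.57 to 0.54) and 0.10 in 67NR (95% interval −0.39 to 0.59). Between vehicle-treated lines the difference was 0.94 (SE 0.29, adjusted p = 0.0162 in limma-voom and 0.000766 in DESeq2).

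Of the relatives and partners of GATA3, 2 of 7 tested genes were called in 4T1 under CIX, beside 9.32% of all genes. *Foxa1*, a pioneer factor of luminal cells, fell by 1.78 (SE 0.21, adjusted p = 0.000308 in limma-voom), from 9.92 ± 1.48 to 2.95 ± 0.683 CPM, a call kept in 3 of 8 fits with 1 sample left out, those without vehicle sample 3 or 11 or CIX sample 4. *Zfpm2*, a GATA cofactor, fell by 1.72 (SE 0.18, adjusted p = 0.000154 in limma-voom), from 10.2 ± 1.39 to 3.09 ± 0.338 CPM, and its response differed from that in 67NR by −1.98 (adjusted p = 1.2e-05 in limma-voom). Between the lines (20.4% of all genes higher, 19.6% lower) 1 of 5 was higher in 4T1, the cofactor *Zfpm1* (2.25), and 2 were lower, *Lmo4* (−1.39, not called without 67NR vehicle sample 5 or 9) and *Zfpm2* (−1.09).

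*Id1* (ENSMUSG00000042745, chr2:152736251-152737410, plus strand) and *Id3* (ENSMUSG00000007872, chr4:136143497-136145755, plus strand), both targets of BMP signaling, had higher mean levels in 4T1 than in 67NR. *Id1* stood at 10.7, 8.01, 7.97 and 6.76 CPM in 67NR under vehicle and at 30.4, 21.6, 21.1 and 22.2 CPM in 4T1 under vehicle. These groups did not overlap, and the difference of 1.50 on the log2 scale was called (SE 0.18, adjusted p = 7.07e-05 in limma-voom). Under CIX *Id1* had 8.01, 5.53, 7.43 and 6.09 CPM in 67NR and 32.4, 18.4, 23.0 and 16.1 CPM in 4T1. Neither change was called, with −0.32 (95% interval −0.72 to 0.07) in 67NR and −0.14 (95% interval −0.64 to 0.36) in 4T1.

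*Id3* varied more between replicates than any other detected member, the highest sample of a group being 2.15 to 4.82 times the lowest. It stood at 11.7, 14.8, 18.7 and 51.3 CPM in 67NR under vehicle and at 17.2, 4.00, 7.15 and 3.57 CPM under CIX. In 4T1 it stood at 41.6, 35.9, 120 and 38.8 CPM under vehicle and at 33.8, 23.8, 20.2 and 15.7 CPM under CIX. The highest values were those of 67NR vehicle sample 13 and 4T1 vehicle sample 11, and the 4T1 treatments did not overlap. The change under CIX was −1.21 in 4T1 (SE 0.40, adjusted p = 0.0346 in limma-voom) and −1.62 in 67NR (SE 0.62, adjusted p = 0.107 in limma-voom), neither called. Without sample 11 the 4T1 value was −0.81 (adjusted p = 0.0217 in limma-voom), and without sample 13 the 67NR value was −1.17 (adjusted p = 0.108 in limma-voom). The difference between the lines under vehicle was 1.35 (adjusted p = 0.0434 in limma-voom), 0.95 without sample 11 and 1.81 without sample 13.

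*Id2*, a further inhibitor of the same family, was opposite to both in its order between the lines. It had 53.8 ± 7.48 CPM in 67NR and 12.5 ± 2.06 CPM in 4T1 under vehicle, a log2 difference of −2.12 (SE 0.14, adjusted p = 2.09e-06 in limma-voom). Under CIX in 4T1 it fell by 1.49 (SE 0.19, adjusted p = 0.000409 in limma-voom) to 4.49 ± 0.793 CPM, the only 1 of 13 tested genes of the ID and BMP list that was called, beside 9.32% of all genes. It kept the call without vehicle sample 11 or CIX sample 4 and lost it without any of the other 6. In 67NR cells *Id2* was also lower under CIX, with 28.5 ± 4.71 CPM and a log2 change of −0.94 (SE 0.13, adjusted p = 0.00305 in limma-voom), not called. The difference of its responses was −0.55 (SE 0.25, adjusted p = 0.118 in limma-voom) and was not called. Between the lines 1 of 12 was higher and 4 were lower in 4T1 (20.4% and 19.6% of all genes), among them the BMP modulator *Twsg1* (−1.03) and the receptor *Acvr2a* (−0.96), which kept its call only without 67NR vehicle sample 13 or 4T1 vehicle sample 15.

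Counted over the list, CIX in 4T1 cells called 1 of 9 tested members, *Cd34*, where 9.32% of all 11664 tested genes were called. Groups did not overlap for 3 members, *Cd24a*, *Cd34* and *Id3*, all lower under CIX, and for 39.9% of all genes. Called and lower were 3.98% of all genes. In 67NR cells 1 of 8 tested members was called, *Sox4*, where 0.389% of 11566 genes were called, and groups did not overlap for *Cd44*, *Sox4* and *Sox9*, all higher under CIX, and for 23.3% of all genes. Called and higher were 0.182% of all genes. The median log2 change of the tested members was −0.24 in 4T1 and 0.07 in 67NR, beside −0.01 over all genes in both.

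**Figure D3:**
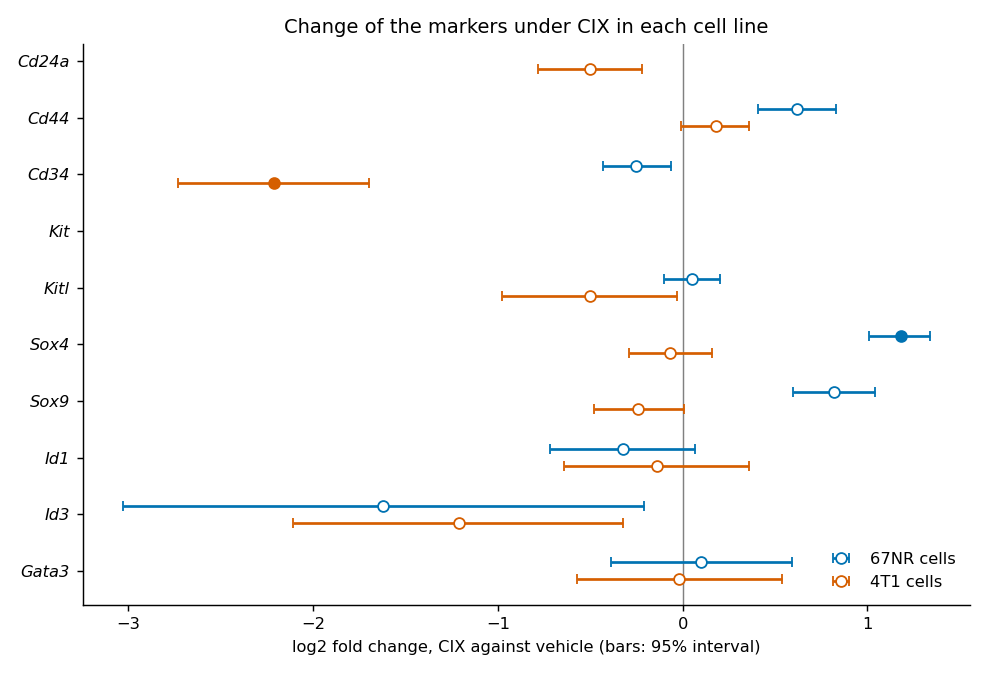
Log2 fold change of CIX against vehicle (x axis) for each tested marker in 67NR (blue) and 4T1 cells (orange), with 95% intervals from limma-voom and filled points for called changes. Cd34 in 4T1 (−2.21) and Sox4 in 67NR (1.18) are filled, and Kit is absent because it was not tested.

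The difference of the CIX response between the lines was called for 3 of 9 tested members, *Cd34*, *Sox4* and *Sox9*, where 7.86% of 12613 genes were called. *Cd24a* entered this count through its 4T1 samples alone, and with at most 5 counts in any 67NR sample no response in 67NR could be estimated for it. All 3 were lower in 4T1 relative to 67NR, a direction called in 3.06% of all genes. Between vehicle-treated lines 5 of 8 tested members were called, with *Sox4*, *Sox9* and *Id1* higher and *Cd34* and *Kitl* lower in 4T1, where 40% of 11044 genes were called, 20.4% higher and 19.6% lower. Groups did not overlap there for 6 of the 8 tested members, the 5 called and *Cd44*, and for 61.6% of all tested genes. *Cd24a*, which was not tested there, did not overlap either. At an adjusted p below 0.05 in limma-voom, members numbered 3 of 9 under CIX in 4T1 (42.7% of all genes), 3 of 8 in 67NR (17.8%), 5 of 9 for the difference of responses (29.3%) and 8 of 8 between the lines (67.4%). These 4 comparisons share samples, since each vehicle group enters its own CIX comparison, the difference of responses and the comparison of lines.

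**Figure D4:**
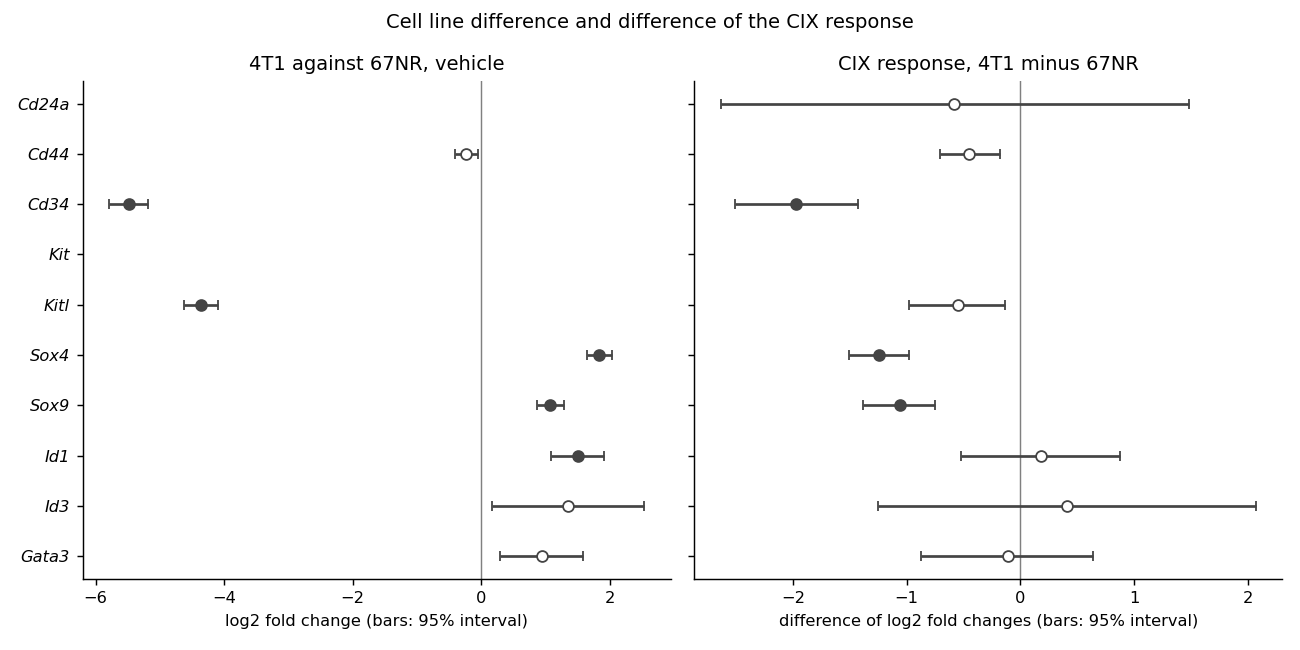
Left, log2 fold change of 4T1 against 67NR under vehicle. Right, CIX response in 4T1 minus that in 67NR on the log2 scale. Points are limma-voom estimates with 95% intervals, filled where called, and the widest intervals on the right belong to Cd24a, whose 67NR counts were too low to estimate a response, and to Id3 (−1.25 to 2.07).

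Further genes of the members' surroundings are given by list. Among the partners of CD44, 5 of 11 tested were higher and 2 lower in 4T1 under vehicle, beside 20.4% and 19.6% of all genes. They included *Ezr* (2.58), which links CD44 to actin, the hyaluronan synthase *Has2* (2.47) and the hyaluronidase *Hyal2* (2.13). The splicing regulator *Esrp1*, which governs variable exons of *Cd44*, had 28.1 ± 1.60 CPM in 4T1 and 0.0198 ± 0.0396 CPM in 67NR under vehicle. It rose under CIX in 4T1 by 0.76 (SE 0.10, adjusted p = 0.000407 in limma-voom), the 1 called gene of 13 tested, and kept its call without vehicle sample 3 or CIX sample 4 and lost it without any of the other 6. Isoforms of *Cd44* were not analysed here, as the values are per gene. In the Notch list 2 of 9 were higher in 4T1 (20.4% of all genes), *Dll1* (2.34) and *Hes1* (1.18), and *Rbpj* was lower (−1.09), while none of 11 was called under CIX in 4T1, beside 9.32% of all genes.

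Among other markers used for mammary stem cells, *Procr* was higher in 4T1 with 94.1 ± 7.59 CPM than in 67NR with 4.03 ± 0.399 CPM, a log2 difference of 4.54 (SE 0.14, adjusted p = 6.27e-08 in limma-voom). The integrin *Itga6* was also higher (0.95) and the polycomb gene *Bmi1* lower (−1.41). Under CIX in 4T1 cells 2 of 6 were called, beside 9.32% of all genes. *Epcam*, an epithelial adhesion protein, fell by 0.78 (SE 0.08, adjusted p = 0.000127 in limma-voom), from 315 ± 3.13 to 186 ± 11.9 CPM. *Lgr6* fell by 1.34 (SE 0.18, adjusted p = 0.000538 in limma-voom), from 87.6 ± 12.6 to 35.4 ± 9.40 CPM, but of the 8 fits with 1 sample left out only that without CIX sample 12 called it. In 67NR cells the change of *Lgr6* was −0.83 (SE 0.18, adjusted p = 0.0169 in limma-voom), also below 0 and not called. The responses differed by −0.51 (adjusted p = 0.168 in limma-voom), not called.

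In 67NR cells none of the 78 tested genes from all 15 lists was called under CIX by limma-voom or edgeR, beside 0.389% of all genes in limma-voom. In a common fit of all 16 samples 2 were called, beside 151 of all 11566 genes, and by DESeq2 14 were called, beside 1041. An unadjusted p below 0.05 in limma-voom was reached by 39, beside 3796 of all 11566 genes.

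The summed level of 22 luminal genes was 3178 to 3932 CPM in 4T1 and 593 to 618 CPM in 67NR under vehicle, where it was mostly *Mfge8* (518 ± 7.66 CPM, beside 463 ± 32.5 CPM in 4T1). Of 8 tested luminal genes 4 were higher in 4T1 and 2 lower, *Ly6a* and *Aldh1a3* (−1.18), beside 20.4% and 19.6% of all genes. Under vehicle *Ly6a* had 11.8 ± 1.38 CPM in 67NR and 0.471 ± 0.255 CPM in 4T1. The keratins *Krt8*, *Krt18* and *Krt7*, which define mammary luminal cells, had means of 551, 1075 and 1071 CPM in vehicle-treated 4T1 cells. In vehicle-treated 67NR cells 15 of the 22 had a mean below 1 CPM, and these keratins stood at 1.77, 0.448 and 1.10 CPM, so that these markers of the labelled carcinoma were nearly absent from that line. No fold is given for these keratins or for *Ly6a*, since a fitted fold against levels near 0 depends on the prior count. Under CIX the luminal sum in 4T1 was 3948 to 4280 CPM, above every vehicle sample. It was mostly *Krt7*, *Krt18* and *Krt8*, with means of 1475, 1199 and 748 CPM, and none of these keratins was called. Of 13 tested luminal genes 1 was called, beside 9.32% of all genes. The milk protein gene *Csn3* fell by 3.95 under CIX in 4T1 (SE 0.28, adjusted p = 4.45e-05 in limma-voom), and its response differed from that in 67NR by −3.79. At an adjusted p below 0.05 in limma-voom there were 8 of the 13, beside 42.7% of all genes. They were *Csn3* and 7 that missed the threshold. Of these 7, the values were below 0 for *Ltf* (−4.55), *Cd14* (−1.01), *Aldh1a3* (−0.93) and *Mfge8* (−0.36) and above 0 for *Itgb3* (0.92), *Krt19* (0.68) and *Krt7* (0.45). Of 12 basal genes 10 were below 1 CPM on average in both vehicle groups, with *Krt5* at 0 in all 67NR samples, and their sum was 26.9 to 28.5 CPM in 67NR, mostly *Mylk*, and 5.03 to 8.05 CPM in 4T1.

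The 9 fibroblast genes summed to 187 to 202 CPM in 67NR and to 50.6 to 60.6 CPM in 4T1 under vehicle, with *Pdgfra* (−1.34) and *Col1a2* (−2.33) lower in 4T1, the latter not called without 67NR vehicle sample 5 or 9 or 4T1 vehicle sample 3 or 11. In 67NR 5 of the 9 had means below 1 CPM, and the sum was mainly that of *Pdgfra* and *Pdgfrb*. *Pdgfra* had 131 ± 4.07 and 224 ± 32.5 CPM in 67NR and 52.1 ± 5.02 and 51.3 ± 2.91 CPM in 4T1 for vehicle and CIX, and its responses differed by −0.78 (adjusted p = 0.000772 in limma-voom), called in 3 of 16 fits with 1 sample left out, those without 67NR CIX sample 2 or 6 or 4T1 vehicle sample 3. Under CIX in 67NR none of 4 tested fibroblast genes was called in limma-voom, beside 0.389% of all genes, and 2 were below an adjusted p of 0.05, beside 17.8%. The values of these 2 had opposite directions, with 0.75 for *Pdgfra* (adjusted p = 0.00266 in limma-voom) and −0.76 for *Pdgfrb* (adjusted p = 0.00425 in limma-voom). *Cd34* and *Kitl*, which fibroblasts also express, were high in the line with the higher sum. The part of this in their levels was not tested. The 6 endothelial genes, which mark another source of *Cd34*, summed to at most 3.40 CPM in any sample, the 7 leukocyte genes to at most 2.33 CPM, the 6 mast cell genes to at most 0.175 CPM and the 4 melanocyte genes to at most 2.31 CPM. The defining genes *Adgre1*, *Cpa3* and *Dct* were at 0 in every sample.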

How the data were processed

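RNA of 4T1 and 67NR cells under vehicle or CIX was measured in 16 samples, 4 per group, which were assigned from their labels, and all 16 columns were mapped. The authors quantified single-end reads of stranded, poly-A selected libraries with salmon (version 0.12 in the submitters' processing notes) to Ensembl GRCm38, as the methods of the study state, although those notes name GRCh38. Transcript values were then combined per gene by tximport, and what the authors deposited are these estimated counts, not normalized. Of the values above 0, 0.0436% were whole within 1e-06, and the scaling used in tximport was not given in the sources used here. The methods call the 4 samples of a group biological replicates, while the labels do not say what separates them, so that p-values measure the spread between these samples.

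Estimated counts were rounded to whole numbers. Symbols and lengths came from GENCODE, which held 32911 of the 33072 genes. Genes with an approximated TPM below 1 in more than 3 samples of a fit were left out. For the difference of responses a gene was left out only where this held in both lines. Tests were limma-voom with TMM (limma 3.58.1, edgeR 4.0.16, R 4.3.3) in the 8 samples compared, and with an interaction term in all 16. Alternatives were edgeR's quasi-likelihood test, DESeq2 1.42.0, other scalings, no filter, a common fit, another threshold and leaving out each sample. Adjusted p-values are Benjamini-Hochberg over all tested genes, and scripts were tested on simulated data. The depth per sample was 21715700 to 29450629 estimated counts. Counting intervals and floors cover counting error only, since reads carried no molecular identifiers. Words of 31 bases shared between genes were counted in GENCODE transcripts, and promoter sequences came from RefSeq (GRCm38.p6).

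Members and lists were chosen with earlier results of these data known. Named genes were the 10 members, up to 3 called genes of each list per comparison with the largest fold change, and the 5 genes most like *Sox4*, the member with the smallest p in the difference of responses. Outside this rule, *Adgre1*, *Aldh1a3*, *Cd14*, *Cpa3*, *Dct*, *Grb7*, *Grb10*, *Itgb3*, *Krt5*, *Krt19*, *Ltf*, *Ly6a*, *Mfge8*, *Pdgfrb* and *Podxl* were named after their values were seen.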

Additional observations from a re-analysis of the deposited data

Results flagged for a closer look

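In 67NR cells under CIX, sample 14 held *Cd24a* at 0.218 CPM while its 3 replicates were at 0. In 4T1 cells under vehicle, sample 3 held *Id1* at 30.4 CPM beside 21.1 to 22.2 CPM in its replicates, and sample 11 held *Id3* at 120 CPM beside 35.9 to 41.6 CPM. Each of these lay farther from its replicates than Dixon's 95% limit. For *Cd24a* this outcome was fixed in advance, since with all replicates at 0 any higher value exceeds the limit. Of the 35 groups compared in this way 3, that of *Cd24a* included, were beyond the limit, where chance alone gives about 1.75. In the other groups *Id1* was highest in samples 1, 2 and 4, at 10.7, 8.01 and 32.4 CPM.

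The response to CIX differed between the cell lines for *Cd34* (−1.97), *Sox4* (−1.24) and *Sox9* (−1.06), given as the log2 fold change in 4T1 minus that in 67NR. These were called by the interaction term of limma-voom.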

How the results depend on the processing

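Alternatives were counted by genes and by members called. With DESeq2, 1980 genes were called for the difference of responses in place of 992, 3095 under CIX in 4T1 in place of 1087, and 1041 under CIX in 67NR in place of 45, with 3 members in 67NR in place of 1 (*Cd44*, *Sox4* and *Sox9*). Between the lines DESeq2 called 6 members in place of 5, with *Gata3* added. With all 16 samples in a common fit, 2680 genes were called in 4T1 and 151 in 67NR, again with 3 members in 67NR. At an adjusted p below 0.05, 3699 genes and 5 members were called for the difference of responses, 7449 and 8 between the lines, 4981 and 3 in 4T1, and 2057 and 3 in 67NR. Without TMM scaling the called genes in 4T1 split into 511 higher and 531 lower, in place of 623 and 464.

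Leaving out 1 sample at a time gave 654 to 1050 called genes for the difference of responses, the lowest without 4T1 vehicle sample 7, and 269 to 975 in 4T1. The latter were 286, 408, 589 and 723 without vehicle sample 7, 15, 11 or 3 and 269, 349 and 481 without CIX sample 8, 16 or 12. In 67NR it gave 0 to 75 genes and 0 to 1 members. The count was 0 in limma-voom without vehicle sample 5 or 9 or CIX sample 6, 10 or 14, where 3230 to 3391 genes had an unadjusted p below 0.05. DESeq2 and edgeR were not run on those subsets. It was 2 without vehicle sample 1, 16 without vehicle sample 13 and 75 without CIX sample 2.

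None of the fold changes that turned their sign was called. With 1 sample left out at a time, they were the differences of response of *Cd24a* (−0.92 to 0.30, with −1.66 in edgeR and −1.84 in DESeq2 in place of −0.58), *Id1* (−0.01 to 0.33), *Id3* (−0.03 to 0.91) and *Gata3* (−0.29 to 0.05), and the CIX changes of *Gata3* in 4T1 (−0.20 to 0.15, and 0.05 without the filter) and in 67NR (−0.05 to 0.26). Of 539 values of members under alternatives, 515 kept their direction and their side of the threshold, 6 were no longer called, 5 were newly called and 13 turned. The cause was not tested.

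Of 559 values of the other named genes, 493 kept their direction and their side of the threshold and 66 were no longer called. Of the 8 called under CIX in 4T1, *Csn3*, *Epcam* and *Zfpm2* kept the call whichever sample was left out, while *Foxa1* kept it in 3 of 8 such fits, *Esrp1* and *Id2* in 2, and *Lgr6* and *Pik3ca* in 1. No paired analysis was run, and the labels number the samples 1 to 16 with no number shared between groups. In order of number the samples are 67NR vehicle, 67NR CIX, 4T1 vehicle and 4T1 CIX in turn. Blocks of consecutive numbers could thus be formed, but no label ties the numbers to a day or batch. A fit with such blocks was not run. At this depth a gene below 3 counts per sample, as *Kit* throughout and *Cd24a* in most 67NR samples, cannot be compared between treatments.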
